A study of Rattus norvegicus with 196 samples.

Results

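The nucleus accumbens shell (NAcSh) of fluoxetine-treated (FT) rats was compared with that of control (Sham) rats. All samples labelled as this region entered the comparison, 8 of the 196 samples of the series, and they formed 4 FT and 4 Sham libraries with the replicate numbers 1, 3, 4 and 5. The rats were naive Long-Evans males, 60 days old at the start and housed in pairs. FT rats drank a daily fluoxetine dose of 18 mg/kg over 6 weeks, and Sham rats drank water for the same time. Tissue punches of 10 animals were pooled for each library, so that the 4 libraries of a group stood for 40 animals, and the spread reported here is that between pools rather than between rats. RNA, labelled as poly(A) although the named library kit is one for total RNA, was sequenced in bulk, and reads were counted on each of 29188 Ensembl transcripts. The values below are CPM, that is, reads on a transcript scaled to the reads on all tested transcripts of the library, with TMM factors. A level in CPM is not corrected for transcript length and is compared only within a transcript.

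The nucleus accumbens is the ventral part of the striatum and a main target of midbrain dopamine neurons. Most of its cells are medium spiny neurons, GABAergic projection neurons that carry either the D1 or the D2 dopamine receptor, and its shell exchanges more fibres with limbic and hypothalamic areas than its core (NAcC). Fluoxetine is a selective serotonin reuptake inhibitor, which blocks the transporter that clears serotonin from the synapse.

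Between 4916999 and 50893913 reads per library were counted on transcripts, with 7511531 to 20815976 in FT. The 50 most abundant transcripts took about 65% of the reads in both libraries of replicate 3 (65.4% in FT, 65.2% in Sham), 53.6% in Sham 1 and 27.7% to 30.9% in the other 5 libraries. Striatal markers fitted the dissection when the 25 regions were ranked by median CPM of total counts. Ppp1r1b, which encodes the medium spiny neuron phosphoprotein DARPP-32, ranked 2 of 25, Adora2a and DRD2, which encode the adenosine and dopamine receptors of D2 neurons, both ranked 3, and Slc17a6, which encodes the vesicular glutamate transporter of thalamic and hypothalamic neurons, ranked 25. FT and Sham libraries of 1 replicate had been processed in parallel and deviated together, and each comparison was made within replicate numbers.

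Sham libraries of replicates 4 and 5 went against their labels in a comparison of NAcSh with NAcC. In replicates 1 and 3, 313 transcripts differed between the regions by at least 0.5 on the log2 scale in the same direction in FT and in Sham, 168 of them higher in NAcSh and 145 higher in NAcC. These differences were then looked up in the replicates that had not been used to choose them. In FT, the direction was the same for 258 of 313 transcripts (82.4%) in replicate 4 and for 262 (83.7%) in replicate 5. In Sham, it was the same for only 58 (18.5%) in replicate 4 and 50 (15.97%) in replicate 5. Across all 14315 transcripts tested in both regions, the difference correlated with that of replicates 1 and 3 with r = 0.264 and 0.310 in FT and r = -0.276 and -0.342 in Sham. These correlations are across transcripts, which are not independent, and they describe these libraries only. For most of these transcripts, the library labelled NAcSh in Sham 4 and Sham 5 thus held the level that marked NAcC in the other replicates, and the library labelled NAcC the level that marked NAcSh. No sample was reassigned here, each library was kept under its label, and results are given with and without replicates 4 and 5.

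**Figure D1:**
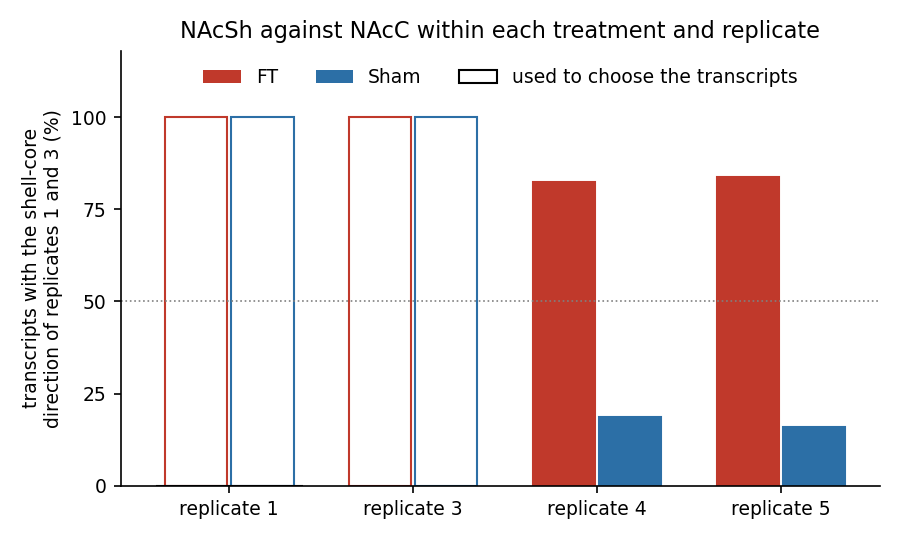
Share of 313 shell-core transcripts (y axis, %) whose NAcSh minus NAcC difference had the direction seen in replicates 1 and 3, for each replicate (x axis) in FT (red) and Sham (blue). Open bars are the replicates used to choose the transcripts, and are 100% by construction. FT bars of replicates 4 and 5 stand above 80% and Sham bars below 20%.

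Single genes, chosen after their values were seen, show the same. Opalin, a myelin protein gene of oligodendrocytes, was higher in NAcC than in NAcSh in both treatments of replicates 1 and 3 and in FT of replicates 4 and 5. In Sham it read 370 CPM in NAcSh against 148 CPM in NAcC in replicate 4 and 362 CPM against 124.9 CPM in replicate 5, scaled over the 16 libraries of both regions. Ppp1r1b and DRD2 showed the same exchange. Nptxr, which encodes the neuronal pentraxin receptor of synapses, was higher in NAcSh in the other 6 pairs of regions and read 36.5 CPM in NAcSh against 67.7 CPM in NAcC in Sham 4, and 86.9 CPM against 229.7 CPM in Sham 5.

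**Figure D2:**
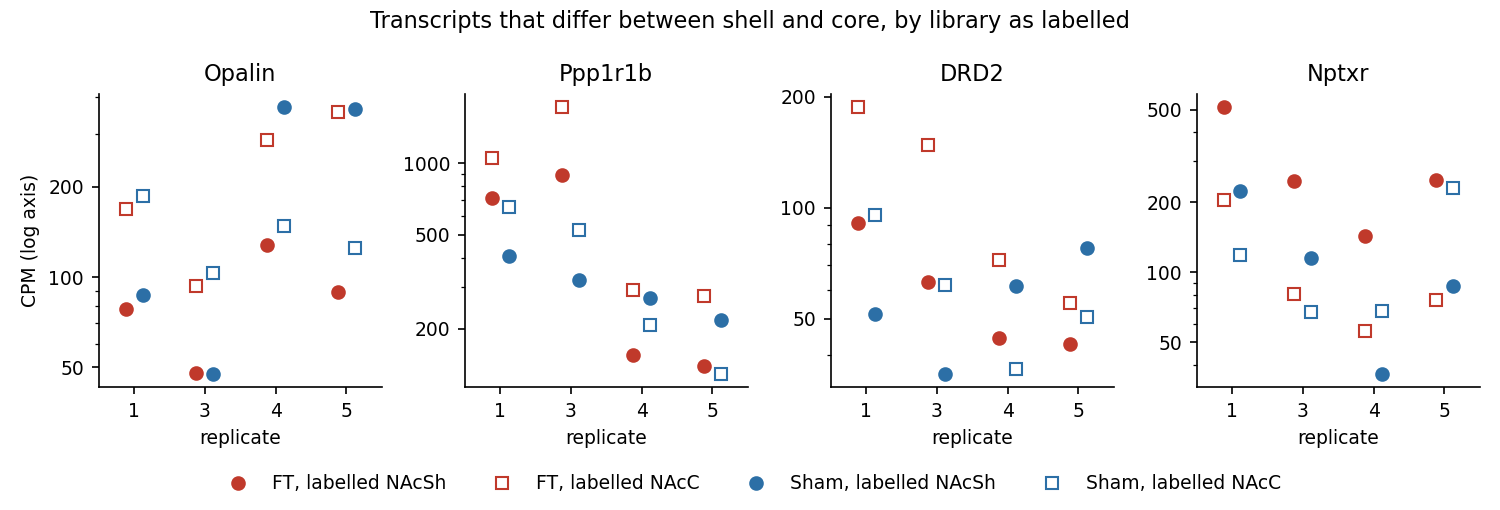
CPM on a log axis of 4 transcripts in each library as labelled, by replicate number (x axis), in FT (red) and Sham (blue), with NAcSh as filled circles and NAcC as open squares. Opalin, Ppp1r1b and DRD2 lie higher in NAcC and Nptxr higher in NAcSh except in Sham of replicates 4 and 5, where the order is exchanged.

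Few transcripts passed the test over all 4 pairs. After the low-count filter, 13416 transcripts were tested with edgeR's quasi-likelihood test with the replicate number as a block, and a differentially expressed transcript (DEG) needed an adjusted p (Benjamini-Hochberg) no higher than 0.1 and an absolute log2FC of at least 0.32. By this rule 2 transcripts (0.0149%) fell in FT and 0 rose. At an unadjusted p under 0.05 there were 2234 transcripts (16.7%), 1218 higher (9.08%) and 1016 lower (7.57%) in FT. The adjusted p of the next transcript was 0.113, a value shared by a group that brought the number at or below it to 89. DESeq2 with the same block, the method of the study, called 469 transcripts higher (3.57% of 13124) and 480 lower (3.66%). Of its 949 calls (7.23%), 936 were among the 13416 transcripts tested in edgeR. All of these 936 had an unadjusted p under 0.05 and the same sign there, on the same counts. CPM of FT and Sham did not overlap for 288 transcripts (2.15%), 184 of them higher (1.37%) and 104 lower (0.775%) in FT, and the log2 ratio had 1 sign in all 4 pairs for 3507 (26.1%).

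The call count changed when pairs were left out, FT and Sham together. In edgeR it was 0 without replicate 4 and 203 without replicate 5. Without both, 2410 of 12114 transcripts (19.9%) were called, 1066 higher (8.8%) and 1344 lower (11.1%), on 2 pairs with 1 residual degree of freedom for each transcript. Replicates 4 and 5 alone gave 2423. These 2 fits share no library. Over the 11795 transcripts tested in both and in the fit of all 4 pairs, they called 2380 and 1981, of which 335 were called by both in the same direction (14.1% and 16.9% of the 2 lists) and 157 in opposite directions. The sign of the fold change was the same for 53.2% of transcripts. Among the 227 shell-core transcripts in this set it was the same for 94 (41.4%), and 18 of the 28 called by both had opposite directions. The ratio of FT to Sham within NAcSh had the sign of the shell-core difference for 138 and 141 of the 313 shell-core transcripts in pairs 1 and 3 and for 253 and 254 in pairs 4 and 5.

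**Figure D3:**
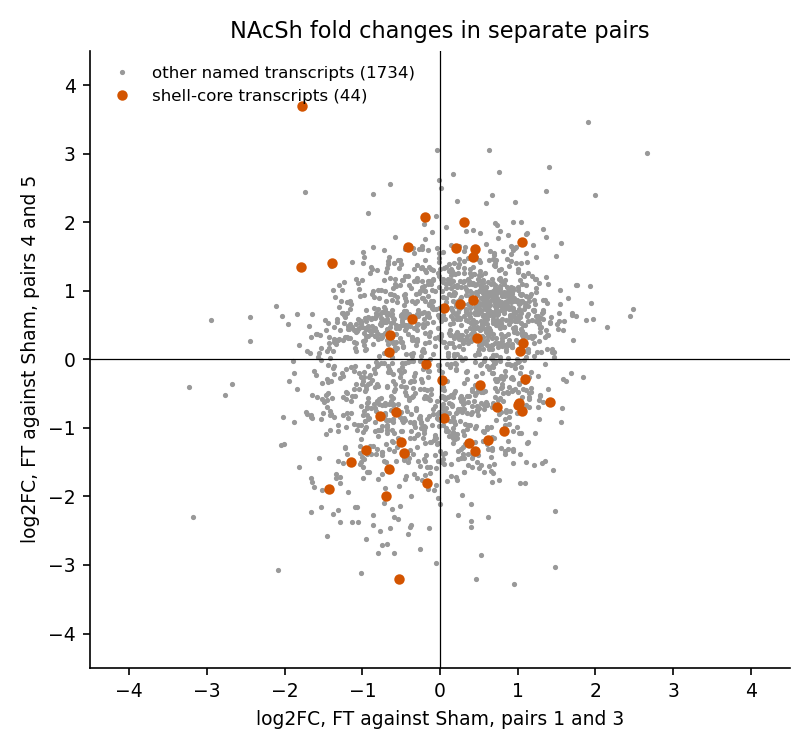
The log2FC of FT against Sham fitted on pairs 1 and 3 (x axis) and on pairs 4 and 5 (y axis) for named transcripts in NAcSh, with shell-core transcripts in orange (44) and the others in grey (1734). Points fill all 4 quadrants, and transcripts in the upper left and lower right changed sign between the separate pairs.

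Names were available for 1845 transcripts, 1824 of them tested. They come from a list of transcripts that the study called in at least 2 regions, this region among the possible ones, so calls among named transcripts are not independent evidence. Their background is higher as well. At an unadjusted p under 0.05, 42.6% of tested named transcripts passed, 28.8% higher and 13.8% lower in FT, DESeq2 called 26.6% of them, 17.5% higher and 9.09% lower, and their median log2FC was 0.20 against 0.01 over all 13416 transcripts. Counts in named gene groups are read against these values, and the log2FC and SE of a gene are those of edgeR throughout.

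The 2 DEGs of edgeR have no name here. ENSRNOT00000074406 read 4.47, 1.75, 0.321 and 0.285 CPM in FT 1, 3, 4 and 5 and 38.0, 10.7, 3.38 and 2.94 CPM in Sham, a log2FC of -3.12 ± 0.32 (SE, adjusted p = 0.0179). ENSRNOT00000071687 read 6.10, 2.62, 0.321 and 0.249 CPM in FT and 62.8, 7.13, 5.45 and 4.94 CPM in Sham, with a log2FC of -3.36 ± 0.44 (SE, adjusted p = 0.0794). Both were lower in FT in every pair. The log2 ratios of the pairs lay between -3.06 and -2.54 for ENSRNOT00000074406, and for ENSRNOT00000071687 they were -3.34, -1.41, -3.70 and -3.83 in pairs 1, 3, 4 and 5. The level of both varied strongly between replicates, so that the groups overlapped. Both kept their call without replicates 4 and 5 (adjusted p = 0.000413 and 0.000998). They were chosen by a fit that includes pairs 1 and 3, so this adds no support. The fit without replicates 4 and 5 called 19.9% of 12114 transcripts.

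Fos, an immediate early transcription factor gene induced by neuronal activity, was the member of the activity-regulated list with a name. Its level was 43.7, 34.7, 33.3 and 36.9 CPM in FT 1, 3, 4 and 5 and 22.7, 15.3, 7.70 and 16.1 CPM in Sham. Every FT library lay above every Sham library. The log2FC was 1.35 ± 0.26 (SE), with an adjusted p of 0.113 in edgeR and 0.00116 in DESeq2. On pairs 1 and 3 alone it was 0.96 (edgeR adjusted p = 0.0286). Vgf, a neuropeptide precursor gene that neurotrophins induce, had a log2FC of 0.85 (DESeq2 adjusted p = 0.0854) and overlapping groups, and was 0.53 without replicates 4 and 5 (edgeR adjusted p = 0.214).

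A cyclic AMP response element, the site through which CREB acts on many activity-regulated genes, was searched for as TGACGTCA, which reads the same on both strands, in RefSeq promoters of 300 bases on the GRCr8 build (250 before to 50 after the gene start). It stood in 1.91% of all 27457 promoters and in 3 of the 56 of 76 gene names of this report with a promoter in the table. Windows upstream of the start are shown for Vgf (chr12:25277093-25277120, minus strand) and for Cartpt (chr2:32991360-32991387, minus strand), a feeding-related peptide gene of the shell that was not called (log2FC -0.07), with the element in capitals. For Cartpt the pairs went in opposite directions, with log2 ratios of 0.52, 0.61, -0.33 and -1.10 in pairs 1, 3, 4 and 5.
Vgf: gaatgaacatTGACGTCAatggggcggg
Cartpt: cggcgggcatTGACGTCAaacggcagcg
A match describes these letters and is no measured binding site.

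Among named transcripts of 1 direction in all 4 pairs, the 10 with the lowest p on the higher side had varied known functions. Nptxr had 523, 254, 147 and 254 CPM in FT 1, 3, 4 and 5 and 229, 119, 37.7 and 90.3 CPM in Sham (log2FC 1.44 ± 0.26 SE, DESeq2 adjusted p = 2.4e-05). It was higher in FT within each pair, with overlapping groups, and it was also 1 of the shell-core transcripts. On pairs 1 and 3 alone its log2FC was 1.05 (edgeR adjusted p = 0.036). Tnnc2, which encodes a troponin C that binds calcium, had 76.3, 54.2, 80.9 and 97.4 CPM in FT and 43.8, 21.0, 17.5 and 18.2 CPM in Sham, without overlap (log2FC 1.71 ± 0.30 SE, DESeq2 adjusted p = 0.000173). Ccne1, the cyclin E1 gene of the cell cycle, had 29.1, 22.7, 36.5 and 25.9 CPM in FT and 17.0, 7.13, 8.06 and 7.16 CPM in Sham, also without overlap (log2FC 1.61 ± 0.29 SE, DESeq2 adjusted p = 0.000251). Gp1bb, a platelet adhesion receptor subunit, did not overlap either (13.9 CPM at most in Sham, 14.2 CPM at least in FT). The remaining genes of this rule on the higher side had log2FC values from 1.24 to 2.06 and were Zfp703, a zinc finger gene, Angptl6, a secreted angiopoietin-like factor, Ttc9b, Sdc4, a heparan sulfate proteoglycan, Tspan17, a tetraspanin, and Atox1, a copper chaperone. DESeq2 called all of them higher. In edgeR without replicates 4 and 5 all passed except Angptl6 (adjusted p = 0.11). These genes were chosen for a low p and 1 sign over all pairs, pairs 1 and 3 included, so these passes add no support. On pairs 1 and 3 alone edgeR called 645 of 1778 named transcripts (36.3%) in either direction.

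On the lower side stood Ttr, which encodes the thyroxine and retinol carrier transthyretin made in the choroid plexus. Ttr had 6.10, 15.4, 8.44 and 4.02 CPM in FT 1, 3, 4 and 5 and 82.5, 78.1, 117 and 6.22 CPM in Sham (log2FC -2.69 ± 0.50 SE, DESeq2 adjusted p = 4.44e-06). It was low in every FT library and in Sham 5 and high in the other 3 Sham libraries. Ttr is the only choroid plexus marker of its list with a name, and the part of adhering choroid plexus in its values was not tested. Ugt8, the enzyme that makes the galactolipids of myelin, had 28.1, 36.4, 77.9 and 56.3 CPM in FT and 62.5, 54.6, 221 and 148 CPM in Sham (log2FC -1.17 ± 0.24 SE, DESeq2 adjusted p = 0.000816). Gtf3c6, a subunit of the RNA polymerase III factor TFIIIC, did not overlap between groups (5.13 CPM at most in FT, 5.62 CPM at least in Sham). The others were Arrdc3, an alpha-arrestin, Rps15al4, a ribosomal protein S15a-like gene, Ids, a lysosomal sulfatase, CTN13, Mbnl1, a splicing regulator, Rnf13, a ubiquitin ligase, and Trim59, with log2FC values from -2.31 to -1.09. All were called lower by DESeq2. In edgeR without replicates 4 and 5, Arrdc3 was removed by the count filter and Trim59 did not pass (adjusted p = 0.143). DESeq2 on those pairs did not call Mbnl1 (adjusted p = 0.3255), Gtf3c6 (0.224) or Trim59 (0.394). It gave no adjusted p for Arrdc3 and CTN13. These genes, too, were chosen by p and sign over all pairs, so their passes add no support.

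**Figure D4:**
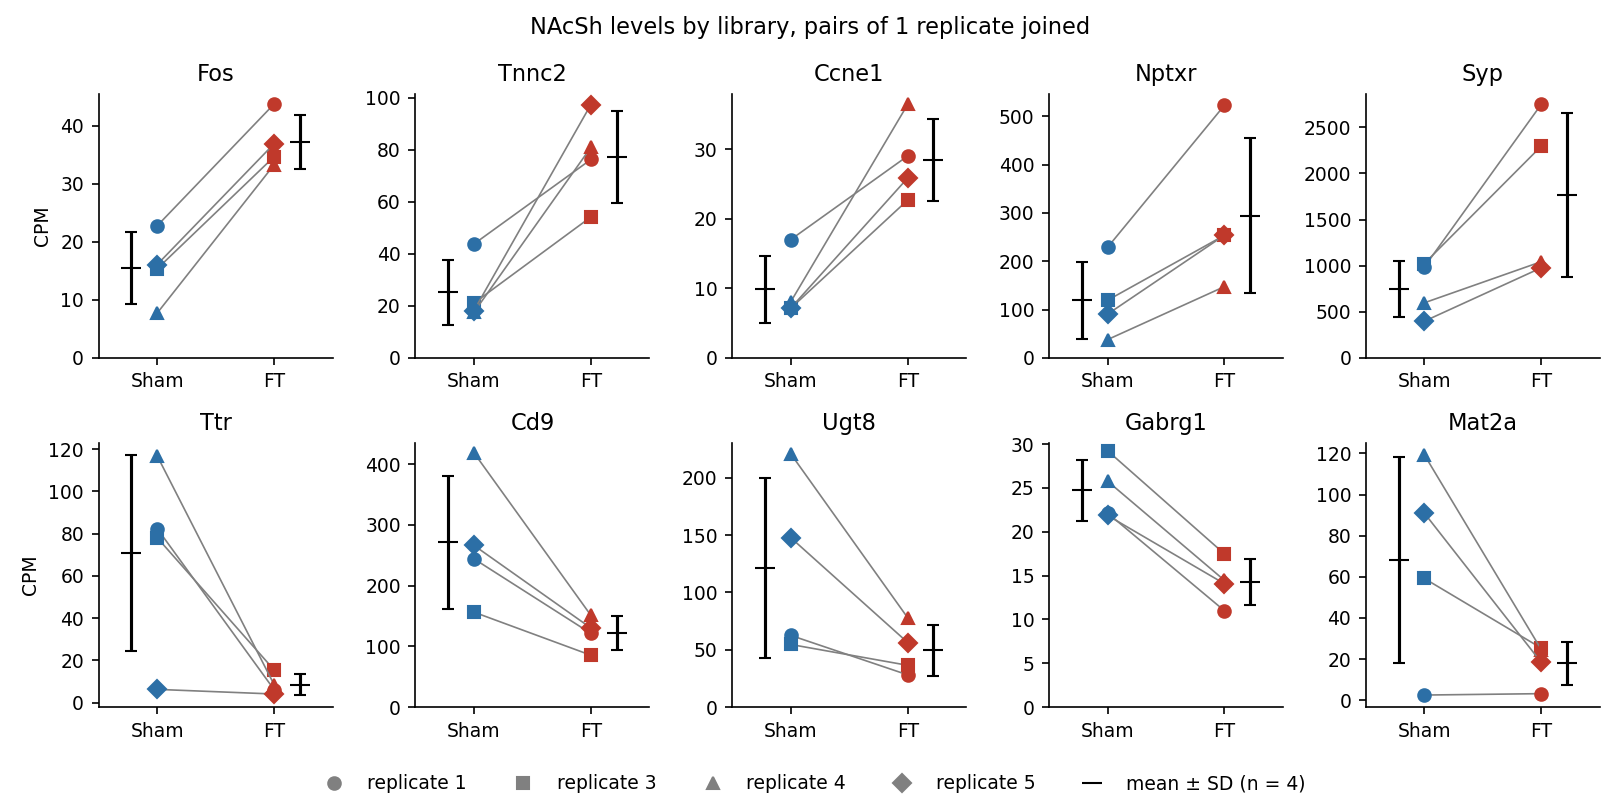
CPM (y axis, linear) of 10 genes in the NAcSh libraries of Sham (blue) and FT (red), with the pair of each replicate joined and the mean ± SD of 4 libraries in black. Fos, Tnnc2, Ccne1, Cd9 and Gabrg1 did not overlap between groups, Ttr in Sham 5 lay within the range of FT, and Mat2a in Sham 1 lay below every FT library.

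Striatal projection neuron genes had ratios of opposite direction in the separate pairs, and none was called over all 4. PENK, the gene of the opioid peptide precursor proenkephalin made by D2 neurons, had 1734 and 2072 CPM in FT 1 and 3 against 863 and 1223 CPM in Sham, and 611 and 607 CPM in FT 4 and 5 against 657 and 797 CPM in Sham. Ppp1r1b had 728 and 915 CPM in FT 1 and 3 against 412 and 332 CPM in Sham, and 160 and 142 CPM in FT 4 and 5 against 278 and 226 CPM. DRD2 had a log2FC of 0.73 on pairs 1 and 3 and of -0.69 on pairs 4 and 5. Over all pairs the log2FC was 0.32 for PENK, 0.20 for Ppp1r1b and 0.06 for DRD2. Without replicates 4 and 5 it was 1.05 for Ppp1r1b (edgeR adjusted p = 0.0559), 0.97 for Rasd2, the gene of the striatal GTPase Rhes (0.0523), 0.73 for DRD2 (0.0655) and 0.79 for PENK (0.183). Adora2a differed less, at 0.20 without replicates 4 and 5 (0.71) and -0.09 over all pairs. Ppp1r1b and DRD2 were among the shell-core transcripts. The direct pathway list and the serotonin receptor list had no tested member with a name.

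Within the dopamine and cyclic AMP list, 7 members were tested, and 1 was higher and 2 lower at an unadjusted p under 0.05. Pde2a, a cyclic nucleotide phosphodiesterase, was called higher by DESeq2 (log2FC 1.10, adjusted p = 0.0136) and Adcy1, a calcium-stimulated adenylyl cyclase, lower (log2FC -1.24, adjusted p = 0.078). On pairs 1 and 3 alone, 3 members were higher and 0 lower with a median of 0.52, and neither Pde2a (edgeR adjusted p = 0.144) nor Adcy1 (0.236) passed. Among striatal interneuron markers 1 of 5 was called. Sst, the somatostatin gene, had 338, 1413, 34.1 and 65.3 CPM in FT 1, 3, 4 and 5 and 85.2, 548, 17.4 and 56.8 CPM in Sham (log2FC 1.14, DESeq2 adjusted p = 0.0168). It was higher in FT in all 4 pairs, and its level varied more between replicates than between treatments.

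GABA-A receptor subunits had lower or similar levels in FT. Of 5 tested, 0 were higher and 2 lower at an unadjusted p under 0.05, and DESeq2 called the same 2. All named transcripts had shares of 28.8% higher and 13.8% lower at that p. Gabrg1, the gamma 1 subunit, had 10.99, 17.5, 14.5 and 14.1 CPM in FT 1, 3, 4 and 5 and 22.1, 29.2, 25.8 and 21.9 CPM in Sham, without overlap (log2FC -0.81 ± 0.23 SE, DESeq2 adjusted p = 0.0313). Without replicates 4 and 5 its log2FC was -0.97 (adjusted p = 0.0373 in edgeR and 0.145 in DESeq2). Over all 4 pairs edgeR did not call it (adjusted p = 0.139), so neither method called it in both fits. Gabrb2, the beta 2 subunit, had a log2FC of -1.20 and overlapping groups, and did not pass without those replicates (-1.01, edgeR adjusted p = 0.2). Glutamate receptor genes split, with 1 of 6 higher and 2 lower. Grm4, a presynaptic metabotropic receptor, was called higher by DESeq2 (log2FC 0.98) and Grik3, a kainate receptor subunit, lower (-1.24).

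Among voltage-gated and inwardly rectifying channels, 2 of 13 were higher and 7 lower at an unadjusted p under 0.05, and DESeq2 called 1 higher and 3 lower. For all named transcripts the shares at that p were 28.8% higher and 13.8% lower. The list had a median log2FC of -0.75. Cacna1i, a T-type calcium channel, fell from 1.83, 9.27, 1.78 and 4.39 CPM in Sham 1, 3, 4 and 5 to 0.283, 5.24, 0.413 and 0.890 CPM in FT in DESeq2 (log2FC -1.93, adjusted p = 0.00376). It was at low counts in all libraries. Kcnj10, the Kir4.1 potassium channel of glia, was called lower (log2FC -1.79, DESeq2 adjusted p = 0.0104), and Kcnk15, a 2-pore potassium channel, higher (0.91, 0.0754). Leaving out replicates 4 and 5, 3 members of 12 were higher and 2 lower. Genes of vesicle release went both ways. Syp, the synaptic vesicle protein synaptophysin, had 2750, 2296, 1043 and 977 CPM in FT and 985, 1023, 597 and 397 CPM in Sham (log2FC 1.19 ± 0.29 SE, DESeq2 adjusted p = 0.000462), while Napb and Syt11 were called lower (log2FC -0.74 and -0.81). Syt11 had a log2 ratio of 0.02 in pair 1 and was negative in the other 3, and on pairs 1 and 3 alone its log2FC was -0.39 (edgeR adjusted p = 0.376).

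Genes of mitochondrial protein synthesis and import made up the list with the most calls. Of 31 transcripts tested, 16 were higher and 0 lower in FT at an unadjusted p under 0.05, and DESeq2 called 11 higher and 0 lower, with a median log2FC of 0.68. Among all named transcripts 28.8% were higher and 13.8% lower at that p. DESeq2 called 17.5% of them higher and 9.09% lower, and their median log2FC was 0.20. Mrpl36, a protein of the large mitochondrial ribosomal subunit, had 114, 95.8, 17.8 and 35.5 CPM in FT 1, 3, 4 and 5 and 41.0, 48.5, 6.70 and 24.9 CPM in Sham (log2FC 1.10 ± 0.24 SE, DESeq2 adjusted p = 0.00665). The groups overlapped, since libraries of replicates 4 and 5 were low in both, and FT was higher in each pair. Mrpl12 (log2FC 0.83) and the inner membrane import gene Timm10b (1.51 for 1 transcript and 1.02 for another that is listed in capitals) were called higher as well. The one-sided pattern did not hold in pairs 1 and 3 alone, where 13 were higher and 7 lower with a median of 0.50. In pairs 4 and 5 alone 22 were higher and 1 lower. Over all 12114 transcripts tested in pairs 1 and 3, 13.5% were higher and 15.6% lower at that p. Pairs 4 and 5 had 1557 higher and 1993 lower of 14380. At an adjusted p no higher than 0.1, edgeR called 36.3% and 45.3% of named transcripts in these separate pairs, in either direction.

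Respiratory chain and ATP synthase subunits were not higher more often than named transcripts as a whole. Of 31 tested, 8 were higher and 0 lower at an unadjusted p under 0.05 and DESeq2 called 5 higher, shares below the 28.8% and 17.5% of all named transcripts. Uqcrq, a subunit of complex III, had 719, 1050, 362 and 449 CPM in FT 1, 3, 4 and 5 and 150, 642, 15.3 and 202 CPM in Sham (log2FC 2.08 ± 0.56 SE, DESeq2 adjusted p = 0.00267). Its ratio was largest in pair 4, where Sham was lowest. The complex I genes Ndufs8, Ndufb10 and Ndufs7 were called higher with log2FC values of 1.02, 0.88 and 1.14. Only Ndufs7 of these 3 passed in edgeR without replicates 4 and 5 (adjusted p = 0.316, 0.341 and 0.029). In pairs 1 and 3 alone, 5 members were higher and 5 lower, and the median went from 0.27 to -0.05.

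Cytosolic ribosomal protein transcripts were on both sides, with 4 of 28 higher and 6 lower at an unadjusted p under 0.05, and 1 higher and 6 lower in DESeq2. Rps15al4, RPL39, RPL37 and Rpl32 were called lower with log2FC values from -1.67 to -0.92. Many such transcripts have near-identical copies that can share reads, so the value of a single one is uncertain. In pairs 1 and 3 alone, 7 were higher and 5 lower, and Rpl32 did not pass (edgeR adjusted p = 0.112). DESeq2 on those pairs called Rps15al4 (adjusted p = 0.0148) but not RPL39 (0.18), RPL37 (0.219) or Rpl32 (0.317).

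Genes of the ubiquitin and proteasome system were mostly higher. Of 21 tested, 11 were higher and 1 lower at an unadjusted p under 0.05, and DESeq2 called 7 higher and 0 lower. At that p 28.8% of all named transcripts were higher and 13.8% lower, and DESeq2 called 17.5% higher. Otub1, a deubiquitinase, had 1530, 525, 603 and 1348 CPM in FT 1, 3, 4 and 5 and 619, 419, 188 and 280 CPM in Sham (log2FC 1.40 ± 0.35 SE, DESeq2 adjusted p = 0.00449). Its FT level in replicate 3 lay below the Sham level of replicate 1. Usp20, another deubiquitinase, did not overlap between groups (61.3 CPM at most in Sham, 64.1 CPM at least in FT, log2FC 0.98), and Ube2v1 and the proteasome subunit Psmd13 were called higher with log2FC values of 0.95 and 0.76. Without replicates 4 and 5, 2 members were higher and 3 lower with a median of 0.17, and neither Otub1 (log2FC 0.73, edgeR adjusted p = 0.215) nor Psmd13 (0.57, 0.189) passed. Ube2v1 (1.26, 0.0292) and Usp20 (0.88, 0.064) passed. These genes were chosen by DESeq2 calls over all pairs, pairs 1 and 3 included, so the passes add no support.

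**Figure D5:**
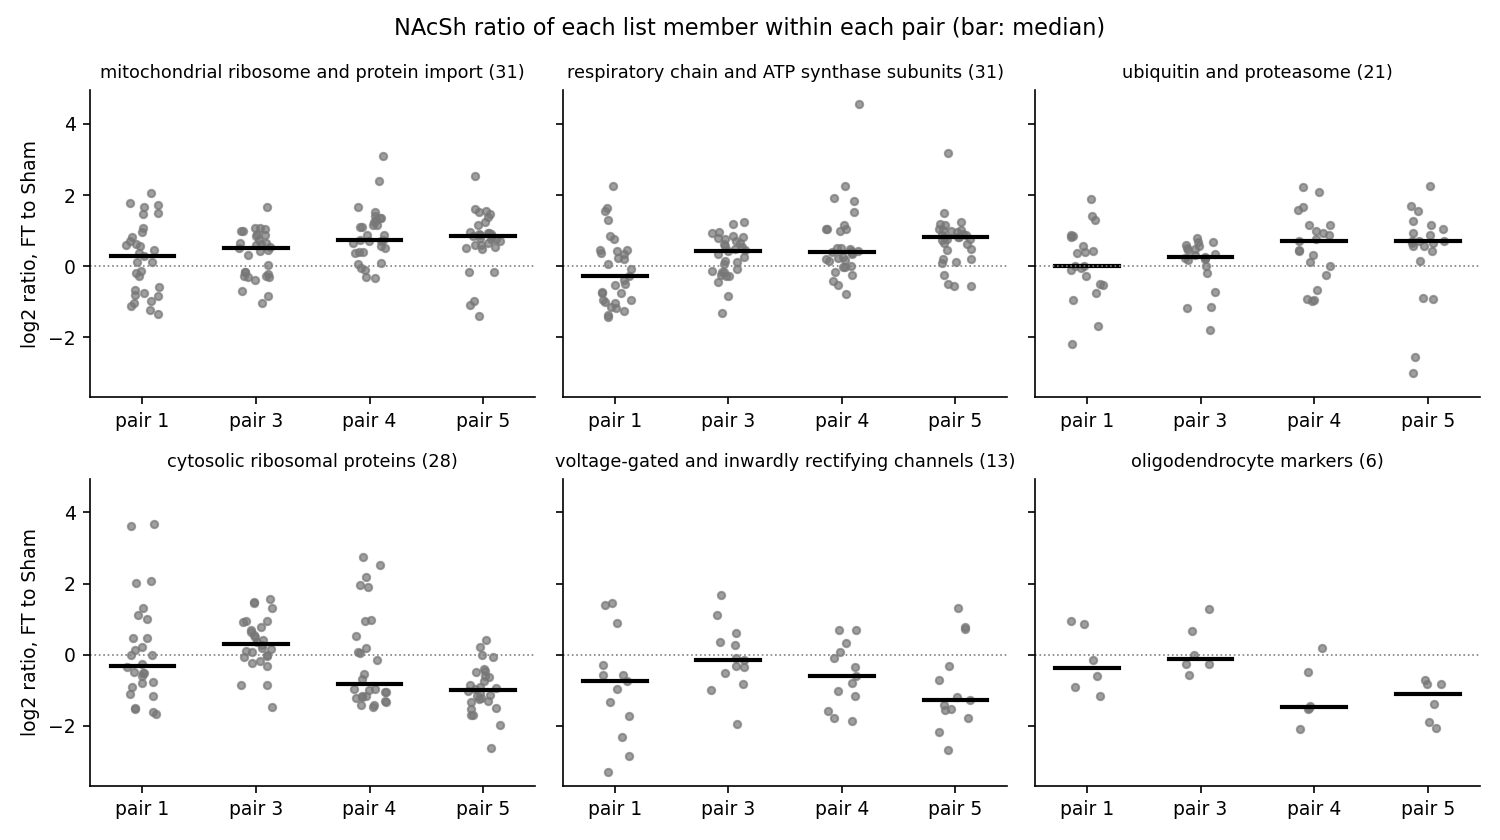
Log2 ratio of FT to Sham CPM (y axis) for each member of 6 gene lists in each pair of replicates (x axis), with the median as a black bar and the number of transcripts in brackets. Mitochondrial ribosome and import members lie mostly above 0 in pairs 4 and 5 and on both sides in pair 1, and oligodendrocyte markers lie lowest in pairs 4 and 5.

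Of 13 chromatin regulators tested, 3 were higher and 1 lower at an unadjusted p under 0.05, and DESeq2 called 2 higher and 0 lower. These shares lie below the 28.8% and 13.8% of all named transcripts at that p. They also lie below the 17.5% and 9.09% that DESeq2 called. Trim28, a corepressor that recruits histone methylation, had 162, 143, 225 and 228 CPM in FT 1, 3, 4 and 5 and 102, 62.1, 125 and 80.7 CPM in Sham, without overlap (log2FC 1.05 ± 0.25 SE, DESeq2 adjusted p = 0.00533). Kat2a, a histone acetyltransferase, was called higher as well (log2FC 0.93), but at 0.42 did not pass without replicates 4 and 5 (edgeR adjusted p = 0.302). Mat2a, which makes the methyl donor S-adenosylmethionine, had 3.19, 25.3, 24.6 and 18.4 CPM in FT and 2.51, 59.2, 119 and 91.0 CPM in Sham (log2FC -1.46, DESeq2 adjusted p = 0.0164). It was higher in FT in pair 1 and lower in the other 3, and without replicates 4 and 5 its log2FC was -0.59 (edgeR adjusted p = 0.301). Of the clock list, the cold-inducible RNA-binding protein gene Cirbp was called higher (log2FC 1.24), and of the corticosteroid target list DEPP (1.30). Neither passed without replicates 4 and 5 (edgeR adjusted p = 0.331 and 0.597).

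Oligodendrocyte markers were lower in FT over all pairs, and their values followed the 2 doubtful Sham libraries. Of 6 tested, 0 were higher and 4 lower at an unadjusted p under 0.05, and DESeq2 called Ugt8, Ermn and Aspa lower. Of the 6, 3 were among the shell-core transcripts, Ermn included. Their summed level was 257, 232, 396 and 297 CPM in FT 1, 3, 4 and 5 and 293, 224, 1226 and 952 CPM in Sham. Both libraries labelled Sham 4 and Sham 5 stood far above the other 6, which did not separate by treatment. Ermn, a myelinating oligodendrocyte gene, had 31.3, 49.8, 116 and 87.0 CPM in FT and 59.1, 59.9, 493 and 320 CPM in Sham. Without replicates 4 and 5 the list had 2 members higher and 2 lower. Ermn then had a log2FC of -0.70 (edgeR adjusted p = 0.082) and Ugt8 of -0.97 (0.0235), while Aspa did not pass (-0.54, 0.213). DESeq2 without those replicates called Ugt8 (adjusted p = 0.0766) but not Ermn (0.256) or Aspa (0.511). Fewer cells of a type and less RNA per cell cannot be told apart in bulk tissue. How much of the difference between FT and Sham comes from treatment and how much from the shell-core exchange in Sham 4 and Sham 5 cannot be told apart over all pairs.

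Other cell type markers gave few calls. Astrocyte markers summed to 514 to 1435 CPM in 3 FT libraries and 638 to 1123 CPM in 3 Sham libraries, while replicate 3 held 20538 CPM in FT and 13475 CPM in Sham. These 2 sums do not stand for the list as a whole. Slc7a10, Agt and Kcnj10 read 20.7, 166 and 2.62 CPM in FT 3 and 17.5, 117 and 5.35 CPM in Sham 3. With the 50 most abundant transcripts left out, 5 of the 6 members remained. DESeq2 called Slc7a10, an amino acid transporter, and Agt, the angiotensinogen gene, higher and Kcnj10 lower. Agt was among the shell-core transcripts. In pairs 1 and 3 alone, 0 of the 6 astrocyte markers had an unadjusted p under 0.05, and the log2FC went from 1.01 to 0.30 for Slc7a10, from 0.70 to 0.43 for Agt and from -1.79 to -1.14 for Kcnj10 (edgeR adjusted p = 0.496, 0.334 and 0.203). None of 3 microglia markers (94 to 162 CPM in sum), 1 endothelial and mural marker or 1 oligodendrocyte precursor marker had an unadjusted p under 0.05. Neurod1, a pallial neuron gene, had 7.23, 6.99, 2.29 and 4.91 CPM in FT 1, 3, 4 and 5 and 6.75, 9.63, 0.415 and 1.36 CPM in Sham, and was not called. It, too, was among the shell-core transcripts. Hbb, a haemoglobin gene that marks blood, was called lower by DESeq2 (log2FC -0.79), with 249, 1302, 55.6 and 75.1 CPM in FT 1, 3, 4 and 5 and 731, 2055, 84.2 and 95.7 CPM in Sham. The other haemoglobin gene tested, Hbb-b1, was not called (log2FC 0.15), with 94.3, 178, 21.4 and 22.4 CPM in FT and 127, 176, 15.5 and 15.0 CPM in Sham.

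The response in NAcSh was tested against that in NAcC in 1 fit of 16 libraries, with the replicates of each region as blocks and a treatment effect for each replicate number, since both punches came from the same pool of animals. Of 14315 transcripts, 9 differed (0.0629%), 5 with a higher (0.0349%) and 4 with a lower log2FC in NAcSh (0.0279%). At an unadjusted p under 0.05 there were 1683 (11.8%), 897 higher (6.27%) and 786 lower (5.49%). Cd9, a tetraspanin gene expressed in glia, had 121, 85.3, 151 and 130 CPM in NAcSh FT 1, 3, 4 and 5 and 244, 156, 419 and 266 CPM in Sham. It was lower in every FT library of NAcSh without overlap, and in NAcC its fitted log2FC was 0.64. The difference of the log2FC, NAcSh minus NAcC, was -1.77 ± 0.23 (SE, edgeR adjusted p = 0.06). For Id3, an inhibitor of helix-loop-helix transcription factors, it was -1.84 ± 0.23 (adjusted p = 0.0405), and for Ttr -5.20 ± 0.63 (adjusted p = 0.0405). Sphkap, an anchoring protein of protein kinase A, was the 1 other named transcript called, with 1.36 ± 0.21 (adjusted p = 0.0983). An exchange of NAcSh and NAcC in Sham 4 and Sham 5 enters this test with opposite signs in the 2 regions. Without replicates 4 and 5, all 4 kept their direction and passed, at -1.39 for Cd9, -1.56 for Id3, -3.93 for Ttr and 1.04 for Sphkap, among 1194 calls. The 4 were chosen by a fit that includes pairs 1 and 3, so these passes add no support. None of the 4 was called without a shared treatment effect, without the replicate block or without replicate 3. Sphkap was also not called with median-ratio size factors, without replicate 4 or without replicate 5 (edgeR adjusted p = 0.118, 0.201 and 0.16). Ttr, Id3 and Cd9 were called in those settings.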

How the data were processed

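The authors deposited raw counts of 76 bp reads per Ensembl transcript for each library, made with STAR and HTSeq on the rn5 build and not normalized. The last 5 summary lines of each file were dropped. Libraries were grouped by region and treatment in the labels. Counts were fitted with edgeR 4.0.16 in R 4.3.3 (TMM, filterByExpr with a minimum count of 10, replicate block, quasi-likelihood test), with DESeq2 1.42.0 and limma 3.58.1 voom as alternatives. Log2 ratios of single pairs used a prior count of 2. By the study's methods, FT and Sham samples with 1 number were handled side by side. Deviations from the group means correlated with r = 0.646, 0.797, 0.830 and 0.533 for replicates 1, 3, 4 and 5. For FT 5 the correlation with a Sham library of another number was higher (r = 0.689). The numbers were taken as pairs, since the study entered replicate numbers as batches. Names came from a supplementary list of the study for 1845 transcripts. Genes were named by rule: edgeR calls, the 10 higher and 10 lower named transcripts with the lowest p and 1 sign in all pairs, up to 4 DESeq2 calls of each of 31 lists, some genes of the study, and the 3 lowest p against NAcC. The members and lists were chosen with earlier results of these data known. In counts simulated for this comparison (13416 transcripts), edgeR called 29 of 100 transcripts changed 2-fold and 87 of 100 changed 4-fold, with 2 false calls, and DESeq2 44 and 89 with 31 false calls. The simulation gave every pair the same treatment effect and held no exchanged library. Its numbers therefore do not carry over to the calls reported here. Counts alone limit the precision at low levels.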

Additional observations from a re-analysis of the deposited data

Results flagged for a closer look

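A stray library was looked for in 84 groups of 4 libraries with Dixon's test, which flags about 1 in 20 by chance, and 7 were found. The gap of the stray library to the nearest one, as a share of the range of its group, was 0.962 for ENSRNOT00000071687 in Sham 1 (62.8 CPM), 0.866 for Tnnc2 in Sham 1 (43.8 CPM) and 0.906 for Ccne1 in Sham 1 (17.0 CPM), all on the high side. It was 0.846 for Rps15al4, high in FT 3 (34.4 CPM), and 0.935 for Gtf3c6, low in FT 1 (2.41 CPM). Summed astrocyte markers were high in replicate 3 of both groups, with 0.954 in FT and 0.962 in Sham. Slc7a10, Agt and Kcnj10 did not carry these sums.

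In the main fit, the response to FT differed between NAcSh and NAcC by a test of the difference for 4 named genes. None of the 4 was called without a shared treatment effect, without the replicate block or without replicate 3. Sphkap was also not called with median-ratio size factors, without replicate 4 or without replicate 5. The log2FC in NAcSh minus that in NAcC was -5.20 for Ttr, -1.84 for Id3, -1.77 for Cd9 and 1.36 for Sphkap. Sham 4 and Sham 5 of both regions, which go against their labels, entered this test, and its values without them stand with the result.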

How the results depend on the processing

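The 2 DEGs of edgeR became 949 with DESeq2, 0 without the replicate block, 83 with median-ratio size factors (19 higher, 64 lower), 1032 without a low-count filter, 35 in a joint fit with NAcC, 79 with limma voom and 1 at an adjusted p of 0.05. Transcripts at an unadjusted p under 0.05 (2234) became 333 without the replicate block. Leaving out replicates 1, 3, 4 or 5 in turn gave 0 (without replicate 4) to 203 DEGs (without replicate 5), 1231 to 2351 transcripts at an unadjusted p under 0.05, and 222 to 826 DEGs by DESeq2, which called 4 without the replicate block. Of the settings chosen after seeing the data, leaving out replicates 4 and 5 together gave 2410 DEGs and 3526 transcripts at an unadjusted p under 0.05, and leaving out 1 and 3 gave 2423 and 3550, while dropping the 50 most abundant transcripts or a robust spread kept 2. The 9 calls against NAcC became 148 with DESeq2, 0 without a shared treatment effect, 0 without the replicate block, 132 without a filter, 0 (without replicate 3) to 540 (without replicate 1) with 1 replicate left out, and 1194 without 4 and 5. The cause of these moves was not tested.

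Of 73 genes followed by log2FC, 8 changed direction in at least 1 setting, and the other 65 include those chosen for 1 sign in all pairs, so their number says nothing of stability. With 1 replicate left out, Ppp1r1b ranged from -0.22 to 0.50, DRD2 from -0.25 to 0.32, Adora2a from -0.39 to 0.041, Slc17a6 from -0.24 to 0.80 and Cartpt from -0.31 to 0.20. Without replicates 1 and 3 together, Ppp1r1b (-0.75), DRD2 (-0.69), PENK (-0.26) and Rasd2 (-0.072) were reversed. Without replicates 4 and 5 together this held for Adora2a (0.20), Cartpt (0.47), Slc17a6 (-1.08) and Neurod1 (-0.20), and without the replicate block for Adora2a (0.042) and Cartpt (0.45). Pools of 10 animals, 4 a group, and 4916999 reads in the smallest library limit what small changes can be seen.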

Other observations

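Libraries of pairs differed in how alike their responses were. The log2 ratios of FT to Sham correlated across 13416 transcripts with r = 0.41 between pairs 1 and 3 and 0.51 between pairs 4 and 5, against 0.27, 0.11, 0.03 and 0.04 between pairs 1 and 4, 3 and 4, 1 and 5, and 3 and 5. FT 5 deviated from its group mean more like Sham 4 (r = 0.689) than like Sham 5 (r = 0.533). Transcripts are not independent, and these values describe the libraries only.

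In NAcC, the ratio of FT to Sham had the sign of the shell-core difference for 122 and 160 of the 313 shell-core transcripts in pairs 1 and 3 and for 76 in each of pairs 4 and 5. Among the shell-core transcripts tested in NAcSh, 69 of 280 (24.6%) had an unadjusted p under 0.05 over all 4 pairs, against 16.5% of the other transcripts.

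Igfbp2, which encodes a carrier of insulin-like growth factors and was chosen after its values were seen, was among the shell-core transcripts. On the scale of both regions it read 18.5, 11.9, 11.3 and 24.0 CPM in NAcSh FT 1, 3, 4 and 5 and 54.0, 44.1, 0.804 and 1.89 CPM in NAcSh Sham. The FT to Sham order is thus lower in pairs 1 and 3 and higher in pairs 4 and 5.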
